A study of Mus musculus with 8 samples.

Results

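Dense clusters of distal open regions were described in naive mouse embryonic stem cells. A peak was taken as distal when its centre lay over 1 kb from every end of a RefSeq protein-coding gene, neighbouring distal peaks were linked when the gap between their edges was under 12.5 kb, and runs of 10 or more linked peaks were kept. On chromosomes 1 to 19 this gave 323 clusters, which held 4178 of 59065 distal peaks (7.07%, exact 95% binomial interval 6.87 to 7.28%). Over single chromosomes the share ran from 2.75% to 12.8%. The clusters were chosen by peak position, so their number, size and spacing are given as description, with no test. Open chromatin had been measured by ATAC-seq, in which the transposase Tn5 cuts and tags accessible DNA, in RHKI cells, a derivative of the E14Tg2a line that carries a knock-in of HA-tagged Rnaseh1, the gene of an enzyme that removes the RNA strand of R-loops. All 8 samples carried this knock-in and were grown in 2i/LIF medium with serum, CHIR-99021 (an inhibitor of GSK3) and PD0325901 (an inhibitor of MEK). The labels name 4 control samples and 4 Dox samples, and state doxycycline, at 500 ng/ml for 48 h, for the Dox samples only. The labels do not say whether the samples of a group were separate cultures, or whether the line is 1 clone.

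The peaks formed 1 list of 76996 positions for the whole series, with no height, score or value of a sample. Dox and control samples were therefore not compared, no cluster can be assigned to either group, and the depth behind the list is unknown. Of the peaks, 75462 lay on chromosomes 1 to 19, of which 16397 lay within 1 kb of a gene end and were not distal. All exact intervals cover the counting of peaks or genes only, and neither peaks nor clusters are replicates of a condition. They treat each peak or gene as a separate draw, although peaks enter clusters in linked runs.

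Distal open regions often mark enhancers, stretches of DNA where transcription factors bind and raise transcription of genes that can lie far along the chromosome. Enhancers lie together at many genes that define a cell type, and long runs of active ones with high levels of coactivators are known as super-enhancers. In naive embryonic stem cells such runs are known at genes of the pluripotency network, among them Esrrb, Tbx3 and a distal control region downstream of Sox2. Accessibility alone does not show that a region is active, and the clusters here were defined without coactivator or histone data.

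Genome sequence was used only where RefSeq gives a window around an annotated transcript start (250 bases before to 50 after it, GRCm38.p6). A cluster peak overlapped 181 such windows, of 72 protein-coding and 80 lncRNA genes, in 120 of the 323 clusters. These are starts that lie within a gene, away from its outer ends, or starts of lncRNA genes, whose ends were not used to define distal peaks. The windows below were picked after their values were seen, because they show the start of a transcript inside the cluster with the most peaks (Gm44867, in the cluster of Plekha7), inside clusters of genes of pluripotency, signalling and lineage (Tbx3os2 at Tbx3, Axin2, Etv5, Cdkn1a, Zfp57 and Gm33460 at Eomes), and at the host transcript of a miRNA cluster (Mirc35hg). Each runs 5′ to 3′ on the strand of its gene, and capitals mark the bases under the peak.
Gm44867: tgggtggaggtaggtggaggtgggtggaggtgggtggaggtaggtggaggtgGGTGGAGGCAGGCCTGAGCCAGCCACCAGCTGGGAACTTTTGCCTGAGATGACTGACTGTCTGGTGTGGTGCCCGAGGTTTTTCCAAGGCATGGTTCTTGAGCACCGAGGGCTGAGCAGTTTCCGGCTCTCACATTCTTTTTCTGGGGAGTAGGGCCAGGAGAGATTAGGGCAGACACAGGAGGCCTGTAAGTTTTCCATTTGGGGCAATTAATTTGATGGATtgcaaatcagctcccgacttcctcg
Tbx3os2: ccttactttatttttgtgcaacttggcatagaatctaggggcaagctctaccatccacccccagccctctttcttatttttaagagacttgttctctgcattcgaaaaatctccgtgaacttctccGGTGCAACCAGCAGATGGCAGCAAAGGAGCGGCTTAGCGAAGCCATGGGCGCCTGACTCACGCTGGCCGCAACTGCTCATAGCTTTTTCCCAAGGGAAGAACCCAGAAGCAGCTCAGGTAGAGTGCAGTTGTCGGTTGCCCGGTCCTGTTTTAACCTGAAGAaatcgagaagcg
Axin2: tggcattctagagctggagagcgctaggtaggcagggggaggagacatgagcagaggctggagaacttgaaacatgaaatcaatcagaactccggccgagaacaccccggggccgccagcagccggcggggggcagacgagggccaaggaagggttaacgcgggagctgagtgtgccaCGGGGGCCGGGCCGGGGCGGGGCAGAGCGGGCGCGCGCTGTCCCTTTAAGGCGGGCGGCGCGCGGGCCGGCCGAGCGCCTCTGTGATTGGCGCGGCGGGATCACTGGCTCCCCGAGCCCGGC
Etv5: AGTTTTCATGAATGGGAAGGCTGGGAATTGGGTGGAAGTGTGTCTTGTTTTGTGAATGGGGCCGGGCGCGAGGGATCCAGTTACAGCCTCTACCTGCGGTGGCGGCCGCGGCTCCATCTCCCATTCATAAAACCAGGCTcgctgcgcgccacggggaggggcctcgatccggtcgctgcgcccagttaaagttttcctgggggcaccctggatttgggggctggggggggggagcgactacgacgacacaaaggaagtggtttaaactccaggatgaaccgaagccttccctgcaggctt
Cdkn1a: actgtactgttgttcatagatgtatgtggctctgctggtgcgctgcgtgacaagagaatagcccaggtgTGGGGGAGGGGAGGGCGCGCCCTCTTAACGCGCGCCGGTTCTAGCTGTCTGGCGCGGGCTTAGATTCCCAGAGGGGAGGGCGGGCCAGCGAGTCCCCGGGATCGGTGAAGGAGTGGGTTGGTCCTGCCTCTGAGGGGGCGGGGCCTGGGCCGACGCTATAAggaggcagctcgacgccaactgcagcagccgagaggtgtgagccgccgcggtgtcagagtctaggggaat
Zfp57: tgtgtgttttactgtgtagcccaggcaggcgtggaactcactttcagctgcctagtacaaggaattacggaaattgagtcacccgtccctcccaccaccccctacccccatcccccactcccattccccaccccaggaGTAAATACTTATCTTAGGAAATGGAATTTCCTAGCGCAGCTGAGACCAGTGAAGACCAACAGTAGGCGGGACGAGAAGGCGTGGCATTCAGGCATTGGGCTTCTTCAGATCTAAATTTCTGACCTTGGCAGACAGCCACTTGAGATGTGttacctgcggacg
Gm33460: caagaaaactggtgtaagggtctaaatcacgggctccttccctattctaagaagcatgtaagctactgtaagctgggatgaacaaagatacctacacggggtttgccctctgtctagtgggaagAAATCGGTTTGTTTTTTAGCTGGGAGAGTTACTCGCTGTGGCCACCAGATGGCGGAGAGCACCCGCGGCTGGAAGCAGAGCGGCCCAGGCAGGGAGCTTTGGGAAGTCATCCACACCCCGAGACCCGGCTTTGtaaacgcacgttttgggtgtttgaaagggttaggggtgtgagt
Mirc35hg: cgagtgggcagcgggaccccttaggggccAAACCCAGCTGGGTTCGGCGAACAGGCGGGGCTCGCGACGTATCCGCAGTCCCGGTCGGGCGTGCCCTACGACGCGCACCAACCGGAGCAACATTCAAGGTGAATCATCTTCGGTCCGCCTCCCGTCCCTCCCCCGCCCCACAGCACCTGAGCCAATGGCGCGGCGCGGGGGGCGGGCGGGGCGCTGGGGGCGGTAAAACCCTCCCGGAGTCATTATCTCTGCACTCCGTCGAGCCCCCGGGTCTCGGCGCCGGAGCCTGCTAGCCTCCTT
Gm44867 is a lncRNA gene on the minus strand, and its window (chr7:116286647-116286946) held 223 bases of a peak of 223 bp. The window of Tbx3os2 (chr5:119691169-119691468, minus strand) held a whole peak of 162 bp, 6538 bp from the nearest protein-coding gene end. The windows of Axin2 (chr11:108920099-108920398, plus strand) and Etv5 (chr16:22438319-22438618, minus strand) belong to starts within these genes, with peaks centred 2512 bp and 1010 bp from the gene's end. The window of Etv5 thus lay at the very edge of the distance that makes a peak distal. The windows of Cdkn1a (chr17:29093519-29093818, plus strand) and Zfp57 (chr17:37002275-37002574, plus strand) held whole peaks of 161 bp and 149 bp. The window of Gm33460 (chr9:118489730-118490029, minus strand) held a whole peak of 133 bp, and 271 bases of the Mirc35hg window (chr6:30174076-30174375, minus strand) lay under a peak of 447 bp.

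The start windows under cluster peaks were rich in GC and intermediate in CpG. Their median GC content was 58.3%, against 58.7% in 2162 windows under other distal peaks, 62.7% in 9696 windows with a peak at a gene end and 48.0% in 19357 windows without a peak. The ratio of observed to expected CpG, which is low where CpG has been lost to methylation, had a median of 0.513 in windows of clusters, 0.619 under other distal peaks, 0.801 at gene ends and 0.228 without a peak. Among protein-coding genes alone the ratio was 0.660 in clusters and 0.708 under other distal peaks, and among lncRNA genes it was 0.353 and 0.416. Of the windows printed above, Mirc35hg had a GC content of 70.3% with 35 CpGs and a ratio of 0.946, while Gm44867 had 56.0% with 5 CpGs and 0.239.

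Short motifs of pluripotency factors were counted in the same windows on both strands. The motif GGGTGTGG, which KLF factors bind, was in 16 of the 181 windows (8.84%), against 4.02% of windows under other distal peaks and 3.57% of all 31396 windows. One such window is that of Gm33460 in the Eomes cluster, with the motif in the bases under the peak. The octamer ATGCAAAT of OCT4 and other POU factors was in 6 windows (3.31%), among them starts of Abl1 and Shroom3, against 1.80% and 1.75%. The core AAGGTCA of ESRRB and NR5A2 was in 9 windows (4.97%), against 4.26% and 4.69%, and 1 of the 9 is the window of Zfp57. The SOX motif ACAATGG and the TCF motif ATCAAAG were each in 7 windows (3.87%). Under other distal peaks the shares were 2.68% and 3.19%, in all windows 3.61% and 3.76%, and in windows without a peak 4.67% and 4.51%. The TATA box letters TATAAA were in 5.52%, near the 6.15% under other distal peaks and 5.37% with a peak at a gene end. They were in 18.7% of windows without a peak and 13.6% of all windows. These are matches of letters and not sites shown to be bound, and the motifs were searched without allowing for overlap with one another. Matches were counted over the whole window, not only under the peak. The 181 windows lay over 160 peaks, so windows of 1 gene or of neighbouring genes can share a match. Windows of Fbxl18 and Gm38733 over the same peak of the Actb cluster all count for both GGGTGTGG and AAGGTCA.

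Most clusters were close to the minimum size. The median cluster held 12 peaks (quartiles 11 and 14, range 10 to 31), 147 of 323 (45.5%) held 10 or 11 peaks, 76 (23.5%) held 15 or more and 16 held 20 or more. The median span was 54.2 kb (quartiles 42.5 and 65.9 kb), from 17.0 to 153.1 kb. In all, the spans covered 18.4 of the 2400 Mb between the first and last positions considered on these chromosomes (0.768%). Just under the minimum were 131 groups of 9 linked peaks, with a median span of 38.1 kb and 2.36 peaks per 10 kb, and just at it were 74 groups of 10, with 40.4 kb and 2.47 peaks per 10 kb. Groups became fewer with each added peak up to 15 peaks, with no break at the minimum, as the plot of group sizes shows.

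**Figure D1:**
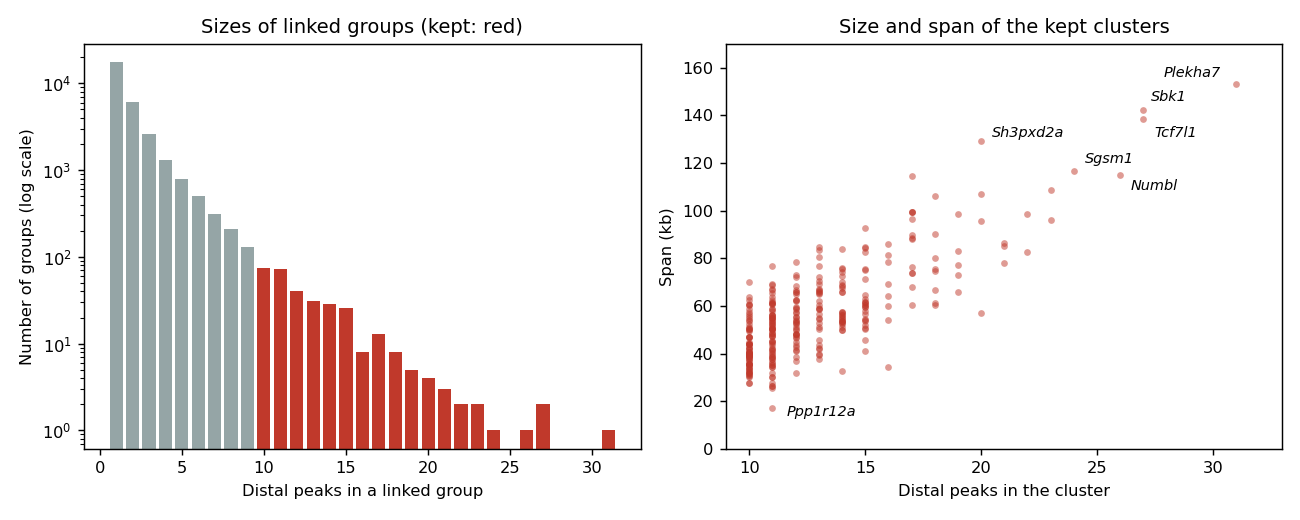
Left, the number of groups of linked distal peaks (log scale) by the number of peaks in the group, with the 323 kept clusters in red and smaller groups in grey. Right, span in kb against the number of peaks for each cluster, 1 point per cluster, named by the nearest gene: most points lie at 10 to 15 peaks, and the Plekha7 cluster stands highest with 31 peaks in 153.1 kb.

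The clusters were long runs of peaks more than tight ones. Gaps between neighbouring peaks had a median of 4.08 kb in clusters (3855 gaps, quartiles 1.56 and 7.12 kb), 4.43 kb in groups of 2 to 9 peaks and 12.7 kb between all neighbouring distal peaks. The word dense therefore holds against the whole list, with 227 distal peaks per Mb in the spans against 24.6 over these chromosomes, but clusters had a median of 2.32 peaks per 10 kb, about that of the groups of 9. Clusters differed from each other in spacing: the median gap of a cluster ran from 0.655 kb to 8.46 kb. The largest gap of a cluster had a median of 10.8 kb, so a typical cluster came near the limit of 12.5 kb at least once. Peaks themselves filled little of a span, with a median of 3.39% (1.84 to 9.42%), or 1788 bp of open DNA per cluster (1186 to 4616 bp).

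Peak width, which the rule did not use, hardly differed between clusters and other distal peaks. Distal peaks in clusters had a median width of 130 bp (quartiles 115 and 154 bp), and those outside clusters had 129 bp (quartiles 114 and 153 bp). Widths above 200 bp were found for 8.33% of peaks in clusters and 7.55% of others, and widths above 400 bp for 2.63% (110 peaks) and 2.02%. The median was higher in clusters on 12 of the 19 chromosomes, equal on 2 and lower on 5, and the share above 200 bp was higher on 12. The widest peak of any cluster, of 746 bp (chr11:4266689-4267434), lay inside Lif, which encodes the cytokine that sustains mouse embryonic stem cells and is itself in the culture medium. The next widest lay in the clusters of Impa2 (738 bp), which encodes an inositol phosphatase, Klf9 (735 bp), which encodes a KLF factor, and Dmtn (733 bp), which encodes the actin-bundling protein dematin. These wide peaks were named after their values were seen.

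The cluster with the most peaks spanned most of Plekha7, which encodes a protein of adherens junctions. It held 31 peaks in 153.1 kb (chr7:116156652-116309758), 30 of them inside the gene, with a median gap of 4.86 kb. The cluster of Tcf7l1, a TCF factor that represses WNT targets and pluripotency genes in these cells, held 27 peaks in 138.6 kb (chr6:72636161-72774762), all inside the gene, between 14.3 and 152.8 kb from its start. One of the 27 was 508 bp wide, and the rest were 94 to 243 bp. The cluster of Rbpms, which encodes an RNA-binding protein, likewise had all of its 21 peaks inside the gene (chr8:33813085-33899467).

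Other large clusters extended over gene borders or over several genes. The cluster of Sbk1, a kinase gene, had 27 peaks in 142.2 kb (chr7:126217129-126359334), of which 8 lay inside the gene. Around Numbl, which encodes a relative of the Notch regulator NUMB, 26 peaks in 114.8 kb (chr7:27230927-27345715) covered 4 genes, with 5 peaks in Coq8b (coenzyme Q synthesis), 3 in Numbl, 14 in Ltbp4 (a binding protein of latent TGF-beta) and 1 in Shkbp1. The cluster of Sgsm1, a modulator of small GTPases, had 24 peaks in 116.9 kb (chr5:113266039-113382897), 7 inside a gene, and also overlapped Aym1. Around Lmna, the gene of lamin A/C, 23 peaks in 108.6 kb (chr3:88436753-88545304) also overlapped Sema4a (a semaphorin), Mex3a (an RNA-binding protein) and Rab25 (a Rab GTPase). The cluster of Srcin1, an inhibitor of SRC signalling, had 23 peaks in 96.1 kb (chr11:97506359-97602429), 15 inside the gene.

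The remaining clusters among the 10 with most peaks were those of Acsbg2 and Ptma. Acsbg2 encodes an acyl-CoA synthetase, and its cluster of 22 peaks in 98.4 kb (chr17:56799429-56897877) also overlapped Rfx2 (a transcription factor of cilia genes), Acsbg3 and Mllt1 (the reader protein ENL). Ptma encodes prothymosin alpha, a small and widely expressed nuclear protein, and 20 of the 22 peaks of its cluster (chr1:86467498-86550306) lay outside protein-coding genes, with 1 inside Ptma and 1 inside Pde6d. By span the 5 largest were those of Plekha7, Sbk1, Tcf7l1, Sh3pxd2a and Sgsm1. The Sh3pxd2a cluster spread 20 peaks over 129.2 kb (chr19:47374598-47503838) and reached Stn1, a gene of telomere maintenance, while Sh3pxd2a itself encodes a scaffold of podosomes. In the map of the largest clusters, peaks were not always spread evenly about the midpoint. At Numbl 14 of the 26 peaks lay in Ltbp4, which runs from 16.8 to 51.4 kb right of the midpoint.

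**Figure D2:**
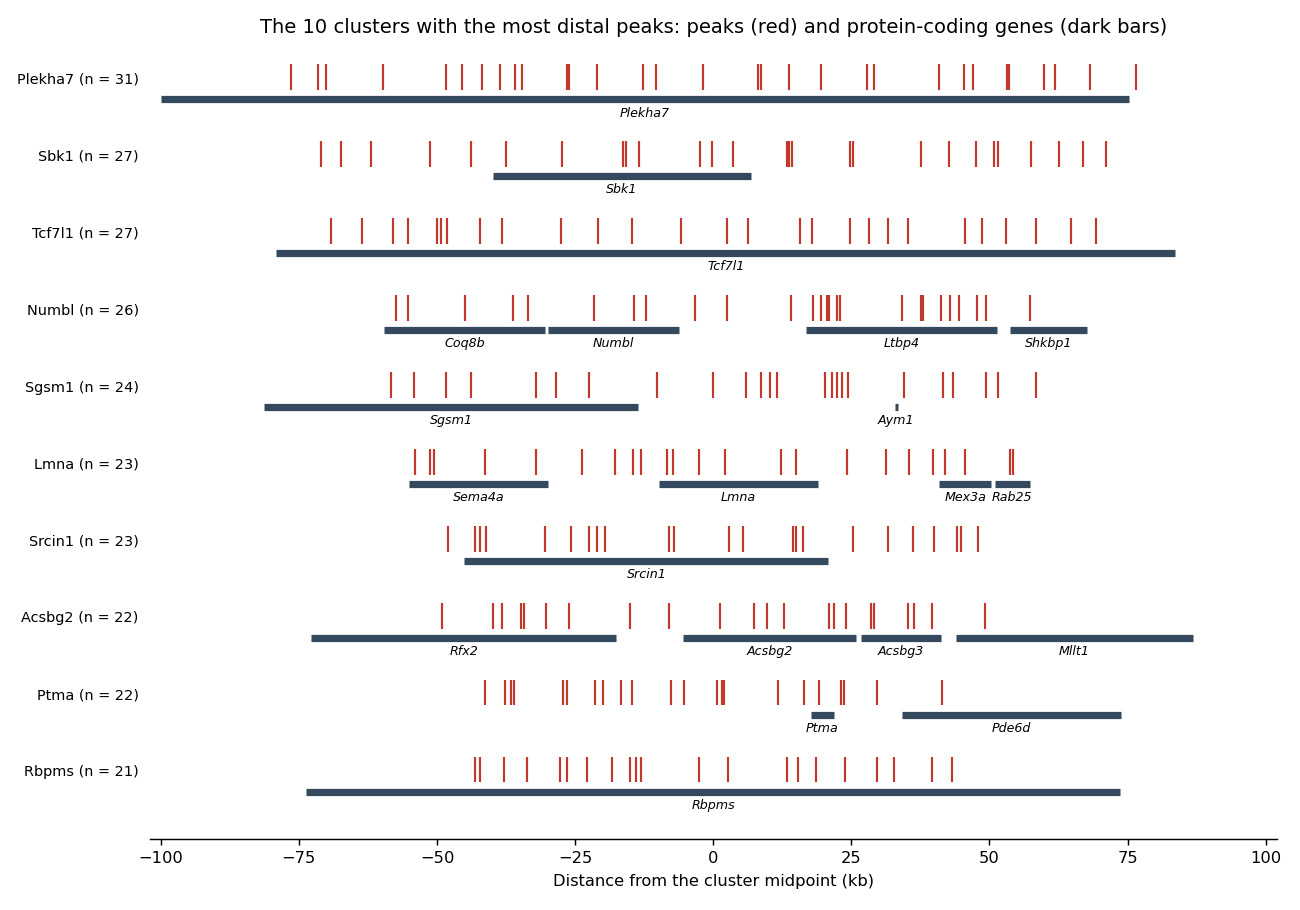
The 10 clusters with the most distal peaks, 1 row each, named by the nearest gene with the number of peaks, drawn by distance from the cluster midpoint in kb. Red ticks are distal peaks and dark bars are protein-coding genes: all peaks of Tcf7l1 and Rbpms and 30 of the 31 of Plekha7 lie within 1 gene, and those of Numbl, Lmna and Acsbg2 extend over 4 genes.

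The densest clusters were short. The highest density, 6.49 peaks per 10 kb, was that of 11 peaks in 17.0 kb (chr10:108286785-108303736) that overlapped no annotated gene and lay 6800 bp from Ppp1r12a, the gene of a myosin phosphatase subunit. Its gaps ran from 265 to 4115 bp, and 1 of its peaks was 390 bp wide against 100 to 146 bp for the others. Also among the 5 densest were clusters over tRNA genes next to the butyrophilin genes Btn2a2 (16 peaks in 34.5 kb, 4.64 per 10 kb) and Btn1a1 (14 peaks in 32.7 kb, 4.28 per 10 kb). The cluster inside Slc2a3, the gene of the glucose transporter GLUT3, had 11 peaks in 25.4 kb (4.33 per 10 kb; chr6:122761186-122786564). It lay 46.6 kb from Nanog, a core pluripotency gene, and was the cluster nearest to it. The cluster next to Nanos3, which encodes an RNA-binding protein of germ cells, had 11 peaks in 26.3 kb (4.19 per 10 kb; chr8:84177539-84203817), all upstream of the gene.

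Clusters were unevenly spread over the chromosomes. Chromosome 11 had the most, 36 clusters or 30.3 per 100 Mb, and chromosome 17 had 27 or 29.4 per 100 Mb with the highest share of its distal peaks in clusters, 12.8%. Chromosome 14 had the fewest, 6 clusters or 4.97 per 100 Mb, with 2.75% of its distal peaks, and its largest cluster, at Tsc22d1, held only 11. The chromosomes with many clusters were also those with many distal peaks per Mb (36.9 on chromosome 11, 30.9 on chromosome 17 and 19 on chromosome 14), and their numbers of protein-coding genes per Mb were 13.5, 11.4 and 7.04. Chromosome 7, with 14.2 genes per Mb, had 12.7 clusters per 100 Mb, and chromosome 15, with 7.67 genes per Mb, had 20.8.

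**Figure D3:**
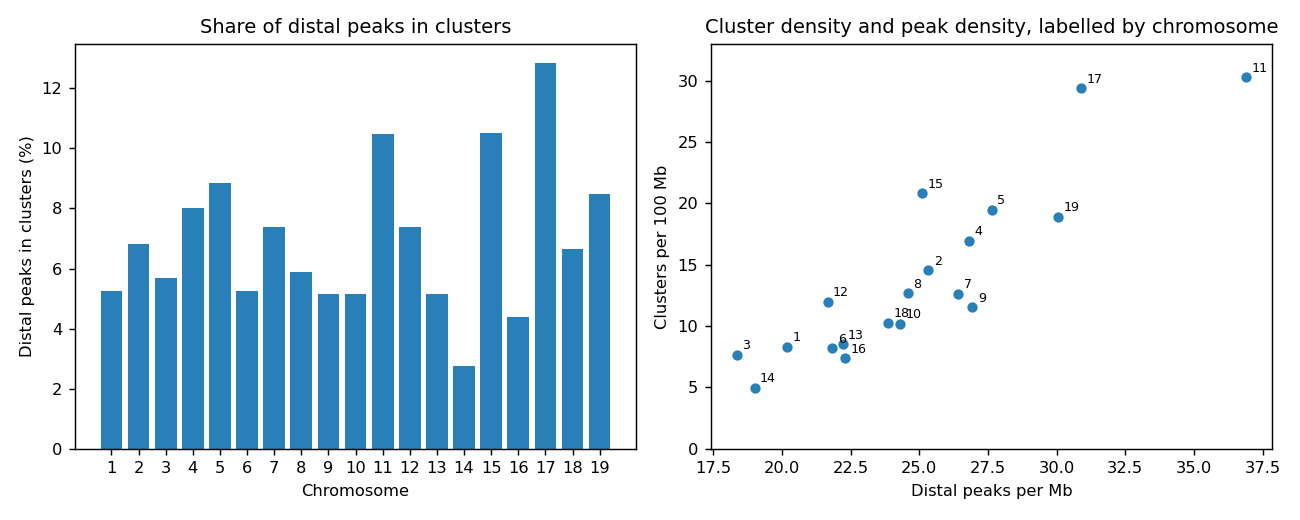
Left, bars from 0 give the share of distal peaks that lay in clusters, in percent, for chromosomes 1 to 19. Right, clusters per 100 Mb against distal peaks per Mb, 1 point per chromosome: chromosomes 11 and 17 lie highest at 30.3 and 29.4 clusters per 100 Mb, and chromosome 14 lowest at 4.97.

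The largest cluster of each chromosome lay near genes of varied function. Apart from those above, these were the clusters of Prrc2b on chromosome 2 (16 peaks), Macf1 on chromosome 4 (21 peaks, a crosslinker of microtubules and actin), Trak1 on chromosome 9 (17 peaks, an adaptor for transport of mitochondria) and Tet1 on chromosome 10 (17 peaks). Chromosome 12 had Irf2bpl (19 peaks), chromosome 13 the zinc finger gene Zfp184 (18 peaks), chromosome 15 Myo10 (21 peaks, a myosin of filopodia), chromosome 16 the kinase gene Tnk2 (18 peaks) and chromosome 18 Cxxc5 (20 peaks, a CXXC domain protein). The median distance from a cluster to the next on its chromosome was 2054 kb, and 13 of 304 such distances were under 20 kb. These formed 12 chains, of which the longest joined 3 clusters with 43 peaks in 225.2 kb over Btbd9 and Dnah8 on chromosome 17. Chains of 38 peaks joined Srcin1 to Mllt6, Numbl to Sptbn4, and Lrrc74a to Irf2bpl, and 36 peaks in 158.1 kb joined Tnrc18 to Actb, the gene of beta-actin. The chains were chosen after their values were seen.

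Most clusters overlapped a protein-coding gene, but their peaks lay inside genes about as often as other distal peaks. Of the 323, 49 (15.2%) overlapped no protein-coding gene, 171 (52.9%) overlapped 1, 57 (17.6%) overlapped 2 and 46 (14.2%) overlapped 3 or more. By peak centre, 78 clusters (24.1%) had every peak inside a protein-coding gene, 52 (16.1%) had none inside and 193 (59.8%) had some. Over single peaks the share inside a gene was near that elsewhere, 55.6% of distal peaks in clusters against 53.3% of other distal peaks. The gene table has no exons, so exons and introns were not told apart. The 49 clusters without a protein-coding gene lay a median of 15.1 kb from the nearest one (0.919 to 281 kb), and 196 clusters (60.7%) overlapped a lncRNA gene. No annotated gene of any kind was overlapped by 9 clusters (2.79%). Other stretches of the same length were not counted, so these shares of clusters have no background and are description only.

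In all, 435 of the 20558 protein-coding genes of these chromosomes (2.12%) were overlapped by a cluster, and 480 (2.33%) were overlapped or nearest to one. Overlapped genes were longer than others, with a median of 26.6 kb against 17.4 kb, and the share overlapped rose with length, from 1.26% of genes under 10 kb to 3.29% of genes of 100 kb or more. For 143 clusters the midpoint lay inside a nearest gene of known strand, at a median of 0.481 of the way from start to end. The first 0.2 of the gene held 25 of these midpoints (17.5%) and the last 0.2 held 21 (14.7%). The cluster of Axin2 had its midpoint at 0.0367 of the gene and that of Esrrb at 0.727. Among other gene classes, clusters overlapped 307 of 12322 lncRNA genes (2.49%), 24 of 1136 miRNA genes (2.11%), 58 of 8797 pseudogenes (0.659%) and 72 of 386 tRNA genes (18.7%).

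Genes within clusters had open ends more often than other genes. Peaks at gene ends were not used to choose the clusters. Distal peaks just over 1 kb from an end were used, and with a distance of 5 kb 87 genes were overlapped in place of 435. The part of such peaks in the shares below was not tested. An end peak was found for 340 of 435 overlapped genes (78.2%, exact 95% interval 74.0 to 82.0%) and for 62.3% of 20123 others (61.6 to 63.0%). Counted by ends, 245 of the 520 gene ends inside spans had a peak (47.1%), against 35.8% of 40596 ends outside, and the share was higher in spans on 15 of the 19 chromosomes. The difference was largest for short genes: 70.7% of overlapped genes under 10 kb had an end peak against 46.5% of others, 78.7% against 68.8% at 10 to 30 kb, and 84.9% against 72.8% at 30 to 100 kb. At 100 kb or more the shares were 75% (exact interval 63.7 to 84.2%) and 73.3%, a difference within the interval. Spans held 15.4 gene-end peaks per Mb against 6.77 outside, and also more gene ends, 28.2 against 17.0 per Mb.

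Among genes of the naive pluripotency network, 7 of 24 (29.2%) were overlapped by or nearest to a cluster, beside 2.33% of all protein-coding genes. The list was chosen with earlier results of these data known, so the shares are description only. The 7 genes were Sox2, Esrrb, Tfcp2l1, Tbx3, Nr5a2, Tet1 and Tet2. The 24 listed genes had a median length of 9.90 kb, beside 17.6 kb for the whole table. Of the 7 at a cluster, Sox2 (2.47 kb) and Tbx3 (14.2 kb) were shorter than 17.6 kb, and the others were 57.2 to 160.5 kb long. The part of gene length in this share was not tested. The other 17, among them Pou5f1, Klf4, Zfp42 and Prdm14, were not at a cluster. Their largest groups within 50 kb held 2 linked distal peaks at Tcl1, Dppa2 and Dppa4, 5 at Pou5f1, Klf4 and Utf1, 6 at Zfp42, Prdm14 and Klf2, 7 at Dppa3, Fgf4, Gdf3 and Sall4, and 8 at Klf5, Lifr and Tdgf1. Nanog had the 11 peaks of the Slc2a3 cluster within 50 kb, but was neither overlapped by it nor its nearest gene. The count follows the rule, as runs of 8 or more would add Klf5 and Lifr (9 of 24, beside 4.45% of all genes), and a gap limit of 15 kb would give 12 of 24, including Nanog, Dppa3, Klf5, Prdm14 and Zfp42, beside 4.08% of all genes.

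The clusters of these 7 genes differed in where they lay. Sox2, which encodes a core factor of pluripotency, is a short gene of 2.47 kb whose cluster lay wholly downstream (chr3:34735043-34795760). Its 11 peaks were centred at 85.1, 95.4, 105, 107, 111, 122, 124, 132, 137, 139 and 146 kb from the start of Sox2. The peaks at 107, 111 and 137 kb were 345, 367 and 359 bp wide, and the other 8 were 115 to 170 bp. The cluster whose nearest gene was Nr5a2, a nuclear receptor gene, also lay downstream, with 11 peaks at 171 to 232 kb from the start of Nr5a2 (chr1:136728161-136789398), with widths of 114 to 193 bp. In both cases no peak of the cluster lay inside the gene, although 2 smaller groups of distal peaks, the larger of 6 peaks, overlapped Nr5a2, and the nearest gene is a matter of distance and not of shown contact.

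Esrrb and the TET genes carried their clusters within the gene or across its start. All 15 peaks of the Esrrb cluster lay inside this nuclear receptor gene (chr12:86451050-86504530), 90 to 143 kb from its outer start. Their widths were 94 to 206 bp, and Esrrb had no peak at either outer end. Tet1 and Tet2 encode enzymes that oxidise 5-methylcytosine. The Tet1 cluster (chr10:62832882-62906641) had 17 peaks, 6 upstream of the start and 11 inside the gene as far as 54.5 kb from the start. The Tet2 cluster (chr3:133506670-133560001) had 12 peaks, 3 upstream and 9 inside, from 14.8 kb before the start to 38.4 kb after it.

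Tfcp2l1 encodes a transcription factor of the naive state, and 4 of the 11 peaks of its cluster (chr1:118622958-118674449) lay upstream, at -4.89 to -1.26 kb from the start, with 7 inside. The peak 15.1 kb into the gene was 450 bp wide, and the other peaks were 97 to 184 bp. Tbx3, a T-box factor gene, had the smallest of the 7 clusters, with 10 peaks in 40.6 kb (chr5:119680143-119720753) of which 2 lay inside the gene. One of the 10 lay over the start of the antisense lncRNA Tbx3os2 printed above.

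Each of the 4 signalling lists had 1 or 2 members at a cluster. Counts this small cannot be set against the share of 2.33% of all genes. In the LIF and STAT3 list 2 of 12 genes (16.7%) were at a cluster. Lif itself had 12 peaks (chr11:4247351-4302532), 2 upstream, 5 inside and 5 downstream of the gene, and the kinase gene Pim3, a STAT3 target, lay at the edge of a cluster of 15 peaks, 14 of them downstream. The nearest gene of that cluster was Ttll8, which it also overlapped. Of its 15 peaks 11 lay inside a protein-coding gene, and 1 of these was inside Pim3. In the Nodal and BMP list 2 of 16 (12.5%) were at a cluster, namely Lefty1, which encodes a secreted inhibitor of Nodal (14 peaks), and Smad7, which encodes an inhibitory SMAD (14 peaks, 6.19 kb from the gene). The nearest gene of the Lefty1 cluster was Tmem63a, and 1 of its 14 peaks lay inside Lefty1. In the WNT and TCF list 2 of 14 (14.3%) were, Tcf7l1 and Axin2, which encodes a negative regulator and known target of WNT signalling. Axin2 had 15 peaks (chr11:108889220-108948854), 6 upstream and 9 inside. In the FGF and ERK list 1 of 16 (6.25%) was, Etv5, an ETS factor gene and ERK target, with 14 peaks (chr16:22372962-22438639), 12 inside and 2 downstream.

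Counts among regulators of chromatin and the cell cycle were also small, beside 2.33% of all genes. Of 12 DNA methylation genes, 3 (25%) were at a cluster, Tet1, Tet2 and Zfp57. Tet1 and Tet2 are also counted in the naive pluripotency list. Zfp57 is a zinc finger gene that protects imprints (11 peaks, 7 of them upstream of it). Its cluster overlapped 4 protein-coding genes, and the nearest gene of the cluster was H2-M5. Of the 11 peaks 7 lay inside a protein-coding gene, 2 of them in Zfp57. Polycomb had 2 of 15 (13.3%). Cbx7, which encodes the main CBX protein of these cells, had 14 peaks (chr15:79919925-79972466), 13 inside, and Kdm2b, whose CXXC protein binds CpG islands, had 11 (chr5:122881347-122936078), all inside and 53.3 kb or more from its outer start. Cell cycle had 2 of 15 (13.3%). Ccnd3, which encodes cyclin D3, lay in a cluster of 15 peaks (chr17:47458521-47551315), and Cdkn1a, which encodes the inhibitor p21, in one of 14 (chr17:29039498-29095661), 12 of them upstream of the gene.

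Lists of lineage genes had 0 or 1 member at a cluster. Eomes, a T-box factor gene of mesoderm and trophectoderm, was the 1 of 15 mesoderm and 1 of 13 trophectoderm genes, with 10 peaks in 30.0 kb (chr9:118468290-118498311), 7 of them downstream. Sparc, a matrix protein gene, was the 1 of 15 for primitive endoderm (13 peaks), Nanos3 the 1 of 14 for germline, Etv5 the 1 of 12 for the formative and primed list, and Mbp, the gene of myelin basic protein, the 1 of 17 for differentiated tissues (17 peaks). Actb was the 1 of 13 among ubiquitously expressed genes, with 18 peaks (chr5:142873857-142940680) shared with Fbxl18. Counts of 0 and 1 in lists this short are too small to set against the share of 2.33% of all genes. The same holds for the signalling, chromatin and cell-cycle lists above, so these lists were not ranked against the lineage lists. No gene was at a cluster in the lists of neuroectoderm (0 of 15), fibroblast markers (0 of 15), R-loop factors (0 of 21) or H2A.Z and its remodellers (0 of 21).

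**Figure D4:**
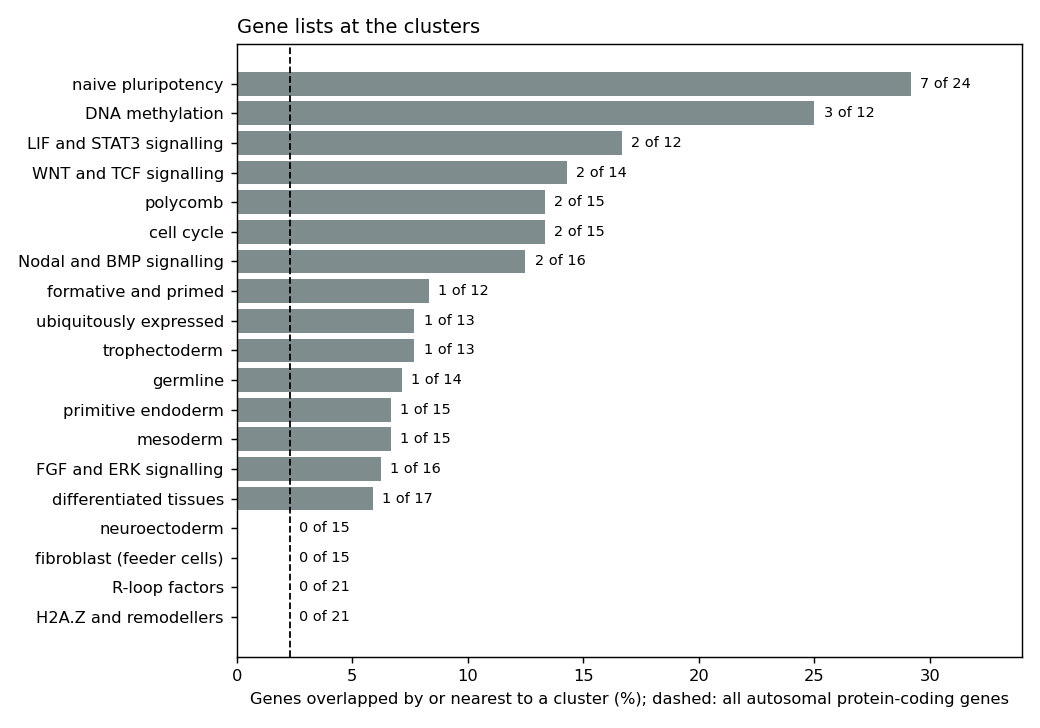
Bars from 0 give the percent of each list of autosomal protein-coding genes that a cluster overlapped or was nearest to, with the count at each bar. The dashed line marks 2.33% of all 20558 genes: naive pluripotency stands highest at 7 of 24, and 4 lists have no gene at a cluster. The lists were chosen with earlier results of these data known.

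Gene families were also taken by symbol. Of 62 SOX, KLF, TBX, GATA, ETV and SALL genes, 5 were at a cluster (8.06%: Etv5, Klf9, Klf13, Sox2 and Tbx3), and the median length of the 62 was 13.7 kb. The zinc finger genes (13 of 444, 2.93%), homeobox and forkhead genes (4 of 131, 3.05%) and solute carriers (12 of 362, 3.31%) were near the background, and all 4 homeobox and forkhead genes at a cluster were forkhead genes. The cadherins, with a median length of 89.6 kb, had 0 of 95, a count too small to set against 2.33% of all genes. The olfactory receptors (0 of 1103) and vomeronasal receptors (0 of 351), short genes that lie in large arrays, had none.

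The functions of the nearest genes were varied. The 323 clusters had 312 distinct nearest genes, and 11 genes, including Zfp64, Tns3, Rbpms, Klf9 and Tpd52, were nearest to 2 clusters each. By textbook function, assigned by hand after the genes were seen and so without a background share, 142 of the 312 were assigned to a group and 170 were not. Among the groups, sequence-specific transcription factors had 35 genes and 37 clusters (11.5%), including Esrrb, Tcf7l1, Xbp1 and Rarg (a retinoic acid receptor). Chromatin regulators and cofactors had 24 genes and 25 clusters, including Cbx7, Chd2 (a remodeller), Nsd1 (a histone methyltransferase) and Rybp (a polycomb subunit). Signalling genes had 15, such as Bmp7, Notch3 and Sufu, and RNA-binding genes 9, such as Trim71 and Msi2. Junction and matrix genes and cell-cycle genes had 8 each.

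A small set of clusters lay over arrays of tRNA genes, which RNA polymerase III transcribes from promoters inside the gene. These clusters were picked after their values were seen. In 6 clusters there were 5 or more tRNA genes, 65 in all, and 5 of the 6 were among the 10 clusters of chromosome 13. Of the 65 tRNA genes 45 lay under a peak, and 45 of the 86 peaks of these clusters lay over a tRNA gene. At Zfp184 (chr13:21879674-21940977) 12 of 18 tRNA genes lay under a peak, at Btn2a2 (chr13:23492155-23526628) 9 of 13, at Gpx5 (chr13:21215445-21275746) 8 of 10, at Prss16 (chr13:21994122-22029337) 6 of 7 and at Btn1a1 (chr13:23430916-23463662) 5 of 11. The sixth, near BC107364 on chromosome 3 (chr3:96399011-96440887), had 5 of 6.

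Over all clusters, 47 of 72 tRNA genes in spans lay under a distal peak (65.3%, exact 95% interval 53.1 to 76.1%), against 74 of 314 outside spans (23.6%, exact upper bound 28.7%). Peaks over a tRNA gene made up 1.12% of distal peaks in clusters and 0.131% of other distal peaks. Peaks on tRNA genes help make a run of 10, so this difference was used by the rule and is description only. The ends of tRNA genes did not count when distal peaks were defined. When the ends of all annotated genes counted, 0 of these 6 clusters remained, while 228 of the 323 clusters did. Many tRNA genes are near-identical copies, how reads that match several places were treated is not given in the sources used here, and its part in these peaks was not tested.

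**Figure D5:**
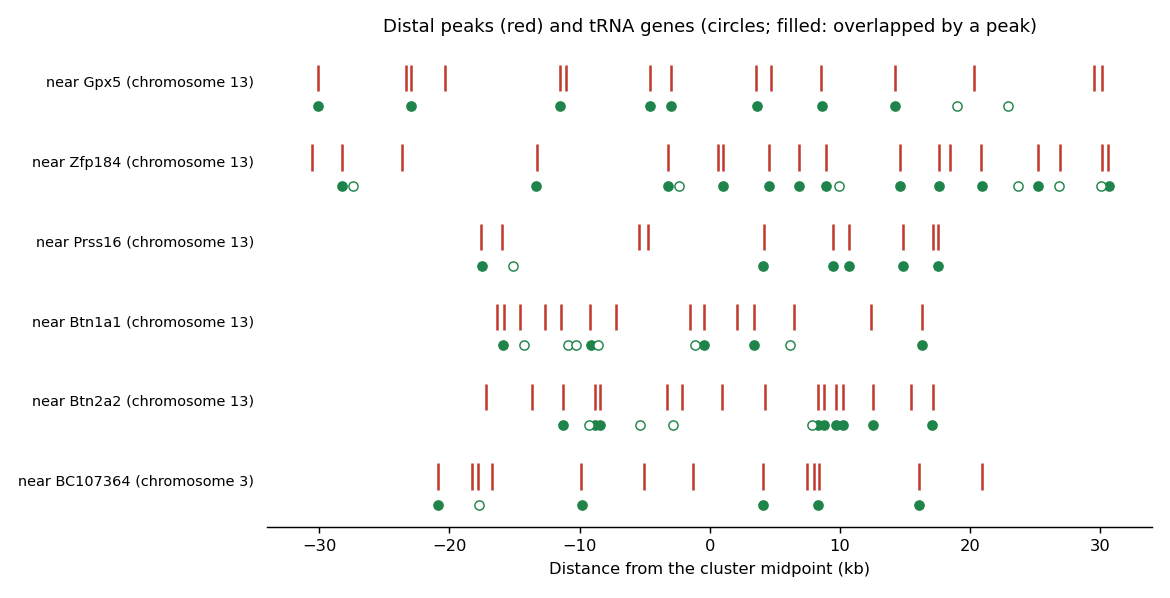
The 6 clusters with 5 or more tRNA genes, 1 row each, drawn by distance from the cluster midpoint in kb. Red ticks are distal peaks and circles are tRNA genes, filled where a peak overlaps the gene: 45 of 65 circles are filled.

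Of 919 miRNA hairpins in the RefSeq table, 22 (2.39%) lay in a cluster span, near the 2.12% of protein-coding genes that a cluster overlapped. This count is over hairpins, and the 24 of 1136 above is over miRNA genes. Of the 22 hairpins, 8 lay within 500 bp of a cluster peak. No such share was counted for other hairpins, so it is description only. The miRNAs are small RNAs that repress messenger RNAs matched by their seed, bases 2 to 8. A cluster of 13 peaks near Nrf1 (chr6:30149044-30205852) held Mir183, Mir96 and Mir182, which are made from 1 transcript and are best known from sensory cells, and the start of their host gene Mirc35hg, printed above, lay under a peak of 447 bp (chr6:30173900-30174346). The mature forms are shown because their seeds differ by few letters, and that of Mir181d, the hairpin of the Nanos3 cluster that lay under a peak (chr8:84178739-84178872), is shown for comparison. Capitals mark the seed.
miR-183-5p: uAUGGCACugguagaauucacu
miR-96-5p: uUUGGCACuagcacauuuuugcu
miR-182-5p: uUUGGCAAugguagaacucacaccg
miR-181d-5p: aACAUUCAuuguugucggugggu
The seeds of miR-183-5p, miR-96-5p and miR-182-5p share the letters UGGCA, and that of miR-181d-5p does not hold them. The hairpins of Mir182 (chr6:30165918-30165992), Mir96 (chr6:30169446-30169551) and Mir183 (chr6:30169668-30169737) lay 1302, 2022 and 2244 bp from the nearest cluster peak, which is another peak of 131 bp between Mir182 and Mir96 (chr6:30167294-30167424). Other hairpins under a cluster peak were Mir7229 at Sgsm1, Mir1983 at Zfp184 and Mir7089 at Cdc25a. The peak at Mir1983 also overlapped the tRNA gene n-TItat14 and is among the peaks counted over tRNA genes above. The muscle miRNA gene Mir499 lay 1895 bp from a peak of the Myh7b cluster.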

How the data were processed

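The authors deposited a single list of peak positions (3 columns, GRCm38) covering all 8 samples together; it has no score and no height. Columns of per-sample values that went unused numbered 0. The submitters' processing notes name Bowtie2 2.5.0, Trimmomatic 0.39, deepTools 3.5.1, HOMER 4.11, SAMtools 1.16.1 and Picard 2.10.9. Which caller and threshold gave the peaks, and any pooling, was not given in the sources used here. Depth and precision per sample are unknown.

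Gene bounds were taken from RefSeq (GRCm38.p6), without strand or exons. Strand came from the RefSeq start windows, which were not complete. Rows of patches and alternative loci and rows in the unsequenced first 3 Mb were dropped, which left 20558 protein-coding genes on chromosomes 1 to 19. Gaps were measured from edge to edge. The nearest gene is the protein-coding gene whose bounds lie closest to the cluster midpoint, and a gene counts as overlapped from 1 bp. The clustering and counting were tested on simulated peaks with known groups.

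Named genes are those overlapped by or nearest to the 10 clusters with most peaks, the 5 with the largest span and the 5 densest, the nearest gene of the largest cluster of each chromosome, every naive pluripotency gene at a cluster, and for each other list the 2 genes with the largest clusters. Any other gene named was picked with its values in view. The members and the gene lists were chosen with earlier results of these data known. Intervals are exact (Clopper-Pearson, 95%) and cover counting only. Alternatives were other gap limits, minimum sizes, distances, gene classes, gap measures and peak widths, and X added. Python 3.11.15, NumPy 2.4.6, pandas 2.3.3, SciPy 1.17.1 and matplotlib 3.10.9 were used. A gene family and a group of nearest genes that were counted are not reported here.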

Additional observations from a re-analysis of the deposited data

Results flagged for a closer look

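Linked runs of distal peaks were also found outside chromosomes 1 to 19, in peaks that entered no count above. On X, 20 of 1036 distal peaks (1.93%) lay in 1 cluster of 74.9 kb, whose nearest protein-coding gene was the olfactory receptor gene Olfr1324, and every other group on X was under 10 peaks. On an unplaced scaffold, 16 peaks lay in a run of 47.0 kb. The list holds no values per sample, so neither run was compared between control and Dox samples, and the size of both runs follows from the rule that keeps 10 or more linked peaks.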

How the results depend on the processing

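The number of clusters (323) was 180 with a gap limit of 10 kb, 508 with 15 kb, 662 with 8 or more peaks, 76 with 15 or more, 152 with a distance of 5 kb and 14 with peaks wider than the median. In this order of settings the share of distal peaks in clusters (7.07%) was 3.66, 11.6, 11.9, 2.28, 4.01 and 0.543%, and it was 8.71% with a distance of 500 bp and 5.28% with the ends of all annotated genes. The median span (54.2 kb) was 43.2 and 62.9 kb at the gap limits of 10 and 15 kb, 42.3 and 75.6 kb at the minimum sizes of 8 and 15, and 50.9 kb with a distance of 5 kb. The median gap (4.08 kb) was 3.53 and 4.66 kb at the gap limits, 3.80 kb with a distance of 5 kb and 5.48 kb with wider peaks. Overlapped genes (435) numbered 183 and 785 at the gap limits, 811 and 111 at the minimum sizes, 702 and 87 at distances of 500 bp and 5 kb, 14 with wider peaks, and 265 when a gene had to hold 3 or more of the peaks. Naive pluripotency genes at a cluster (7) numbered 12 with 15 kb, 2 with 15 or more peaks, 4 with a distance of 5 kb and 0 with wider peaks, where 0.0827% of all genes were at a cluster. Gaps from centre to centre (315 clusters) and X added (324) moved no value beyond its interval or 1.5 times. With a gap limit of 10 kb, 179 of the 323 clusters still overlapped a kept one. No paired analysis was possible because the list holds no values per sample, and for the same reason Dox against control and leaving out replicates were not run.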
